A study of Mus musculus with 18 samples.

Results

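In epidermis that carried HrasG12V and a scrambled shRNA (HrasG12V shScram), ribosome footprints over coding sequences were set against RNA from the same condition, gene by gene. The 6 libraries concerned, 3 of footprints and 3 of RNA, were chosen by their labels from the 18 libraries of the series. They gave a footprint-to-RNA ratio for 11449 of the 20655 genes in the count table. Genes were ranked if they differed significantly and at least 2-fold, had at least 10 CPM and did not overlap between library kinds. Predicted gene models and replication-dependent histones were left out of the ranking. Footprints outnumbered RNA most in Calm2, Snrpd1 and Atox1 in that ranking. They were also high in most genes of whole machines such as the respiratory chain, the proteasome and the hnRNP proteins. By the same limits they were fewest, relative to RNA, in Nrtn and Map3k10, whose footprints were near the floor. Low ratios were also found for mRNAs with regulatory upstream frames such as Slc35a4 and Atf4 and for most ribosomal protein genes.

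HrasG12V is an oncogenic form of a small GTPase that feeds the RAS-ERK growth pathway. Per the labels, HrasG12V shScram mice were of strain FR-HrasG12V and had HrasG12V as genotype. HrasG12V shEif2b5 mice shared strain and genotype and received an shRNA against Eif2b5, which encodes the catalytic subunit of the exchange factor eIF2B. WT shScram mice came from another strain, with the Gt(ROSA)26Sortm4 allele and its fluorescent reporters tdTomato and EGFP, so that strain and genotype cannot be told apart, and the genotype of 1 WT footprint library reads Rosa26. All groups were injected in utero with shRNA at E9.5, their epidermis was taken at E18.5, and cycloheximide was present while cells were isolated. The labels do not say how many cells took up the shRNA, how HrasG12V was switched on, or from how many animals each library was made. The p-values therefore measure only the spread between libraries, which may be technical.

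Ribosome profiling sequences the short stretch of mRNA that a ribosome shields from nuclease. A gene with many footprints for its RNA carries many ribosomes per length of coding sequence, as long as footprints and RNA were captured and counted alike. Reads of both kinds were counted over the coding sequence, so the ratio does not give ribosomes per transcript. Cycloheximide stops elongating ribosomes on the message. Initiation factor eIF2 brings the first amino acid to the ribosome, and eIF2B recharges it. Short reading frames in the 5′ leader, iron-responsive elements and terminal pyrimidine tracts are the classical features by which single mRNAs are held back.

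The ratio is given as the log2 ratio of footprints to RNA after TMM scaling, so that 0 is close to the typical gene and not 1 footprint per RNA molecule. Levels are CPM, counts scaled to a common library size with the same factors, listed for libraries 1, 2 and 3. Each ± on a log2 ratio is an approximate standard error (SE), the absolute log2 ratio divided by the square root of the test's F statistic. It can be too small for genes with very few counts. A gene was called higher or lower at a Benjamini-Hochberg adjusted p under 0.05 in edgeR's quasi-likelihood test, and every adjusted p in this text comes from that test unless another is named. RNA mass per cell is lost in this scaling, and in bulk tissue fewer cells of a type and less RNA per cell cannot be told apart. No gene list was tested as a set. A list is described by its called members and its median beside those of all tested genes.

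Footprint libraries held 4579407, 3641185 and 4502203 coding-sequence counts and RNA libraries 5214473, 1771365 and 4310239. RNA library 2 was the shallowest and stood apart from the other RNA libraries of its group. Its log CPM values correlated with those of the other RNA libraries at 0.947 and 0.948 across genes, against 0.968 between RNA libraries 1 and 3 and 0.983 to 0.984 among footprint libraries. The rank correlation of gene level with coding GC content was 0.08 in RNA library 2 and -0.02 and -0.06 in RNA libraries 1 and 3, against -0.25 to -0.23 in the footprint libraries. The 6 RNA libraries of the other conditions lay between 0.06 and 0.16, as RNA library 2 did. The cells are labelled as epidermal basal cells. The 7 basal markers summed to 10229 to 14414 CPM in footprints and 8577 to 11887 CPM in RNA, whereas the 6 spinous markers summed to 30975 to 38112 CPM in footprints and 33761 to 62658 CPM in RNA, so that spinous markers exceeded basal markers in every library. Melanocyte markers (6 of 6 detected) reached 1352 to 1605 CPM in footprints and 575 to 710 CPM in RNA, and fibroblast markers (6 of 6) 1209 to 1825 CPM in footprints and 519 to 1046 CPM in RNA. Immune, endothelial, Merkel cell, erythroid and muscle markers stayed under 31 CPM in sum in every library, with Cd207, Hba-a1 and Hbb-bs at 0.

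Of the 11449 tested genes, 3576 (31.2%) were called higher in footprints and 3822 (33.4%) lower, while 4051 were not called. At least 2-fold, 1776 (15.5%) were higher and 2342 (20.5%) lower. The distribution leaned to the low side. At least 8-fold, 3 genes were higher and 131 lower, and the quartiles lay at -0.82 and 0.68. For 7660 genes (66.9%) the 3 footprint libraries and the 3 RNA libraries did not overlap. Of the tested genes, 1154 had at least 10 counts in every library of 1 kind only. Such genes may have entered the test through that kind alone, and 313 of them were called higher, 305 lower and 536 not called. Of the 131 genes at least 8-fold lower, 64 were among them. Without RNA library 2, 7224 genes were called, and without RNA libraries 1 and 3 together, 6171 were called. Of these, 6887 and 5703 had the call of the full fit.

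**Figure D1:**
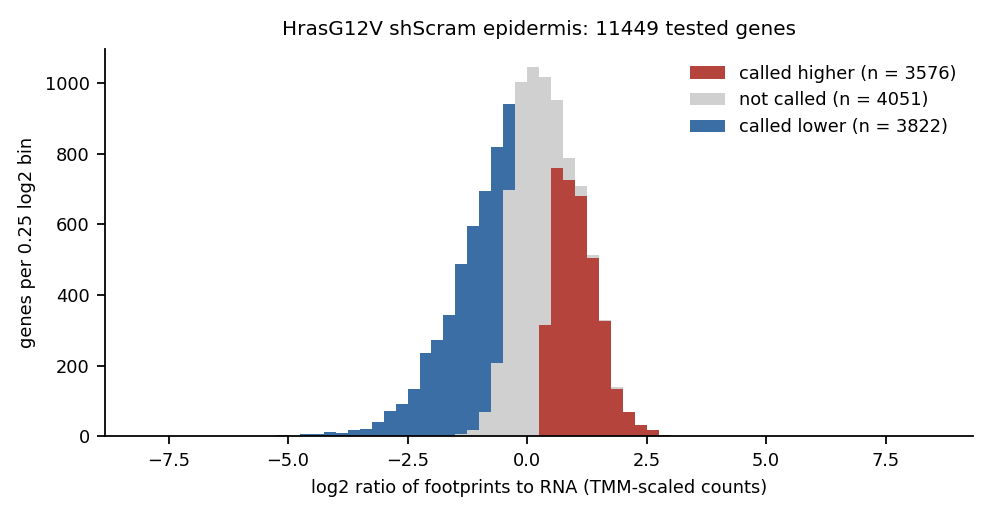
Histogram of the log2 ratio of footprints to RNA in HrasG12V shScram over 11449 tested genes, in bins of 0.25, stacked by call (adjusted p under 0.05). The lower tail is longer: 666 genes were at least 4-fold lower and 128 at least 4-fold higher.

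Calm2, which encodes the calcium sensor calmodulin, had the highest ratio among the genes named by rule. That rule asked for a call of at least 2-fold, at least 10 CPM and no overlap between library kinds. It left out predicted gene models and replication-dependent histones. Calm2 was thus not the highest of all tested genes, whose log2 ratios reached 8.22. The Calm2 gene lies on chromosome 17 (87433412 to 87446935, minus strand, mm10). Its footprints were 818, 676 and 728 CPM and its RNA 81.6, 120.2 and 94.8 CPM, a log2 ratio of 2.92 ± 0.19 (adjusted p = 1.12e-12). Every footprint library exceeded every RNA library by a wide margin. Atox1, a copper chaperone, had footprints of 918, 732 and 809 CPM and RNA of 98, 147 and 120.3 CPM, with a log2 ratio of 2.76 ± 0.39 (adjusted p = 2.80e-05). Ptges3, the Hsp90 cochaperone p23, had footprints of 1104, 867 and 881 CPM and RNA of 140.3, 142 and 152 CPM and a log2 ratio of 2.72 ± 0.18. Prdx1, a peroxide-reducing enzyme, had 1577, 1531 and 1497 CPM in footprints and 265, 199 and 295 CPM in RNA, a log2 ratio of 2.60 ± 0.21. Snrpd1, a core protein of spliceosomal RNPs (2.84), Ndufs5 of respiratory complex I (2.75), the complement inhibitor Cd59a (2.72), the reinitiation factor Mcts1 (2.70), the glutathione-degrading Chac2 (2.68) and Ndufc2 of complex I (2.56) made up the rest of the top. With offsets for coding GC content and length, their ratios lay between 1.42 for Cd59a and 2.08 for Atox1. Calm2, Ptges3 and Prdx1 belong to families with close copies, and how multiply mapped reads were counted is not given in the sources used here, so their ratios are uncertain.

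At the other end, Nrtn, which encodes the growth factor neurturin (chromosome 17), had 0.223, 0.545 and 0.448 CPM in footprints and 36.9, 47.3 and 28.5 CPM in RNA, a log2 ratio of -6.42 ± 0.33 (adjusted p = 1.55e-14). Footprints were all but missing from a transcript that every RNA library held. Map3k10, a mixed-lineage kinase, had 0.669, 1.36 and 0.896 CPM in footprints and 36.3, 67.3 and 36.8 CPM in RNA (-5.52). Footprints of Nrtn and Map3k10 were near the floor, and both genes entered the test through their RNA. The size of their ratios and the SE are therefore uncertain. B4galt2, a galactosyltransferase, had 3 footprint counts over the 3 libraries against 125 RNA counts. That is a ratio of 0.0223 with an exact Poisson interval at 95% of 0.00453 to 0.0666, for counting error only. The fitted log2 ratio of B4galt2 was -5.27, and it moved to -8.29 without footprint library 1 and to -4.68 without footprint library 3. Hmga1 (-5.23), Rnf208 (-5.02), Nsmf (-4.71) and Wbp1 (-4.68) were also below -4.5. Rsc1a1 had the log2 ratio -5.18, but 100% of its coding bases are shared with an exon of Ddi2 on the same strand, so its counts cannot be assigned to it alone. Hmga1 has near-identical copies in the genome and is uncertain for that reason.

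By the same rule with at least 100 CPM, Rsc1a1, Col27a1 and Hr had the lowest ratios. Hr encodes hairless, a corepressor needed for hair growth, and its human counterpart is known for an inhibitory upstream reading frame. Hr had 26.3, 28.1 and 33.1 CPM in footprints and 370.4, 717 and 465 CPM in RNA, a log2 ratio of -4.14 ± 0.20 (adjusted p = 1.09e-14), 17.6-fold lower. RNA library 2 was the highest of the RNA libraries, and all 3 lay far above the footprint libraries. The collagen gene Col27a1 (-4.23, and -3.65 without RNA library 2) was on the same level. The transcription cofactor Mllt6 (-4.08), the centromere protein gene Cenpb (-3.82), Mfhas1 (-3.75), the RNA-binding Mex3d (-3.63) and the zinc finger gene Hivep1 (-3.54) followed. With the offsets the ratios of these 7 genes moved to between -2.62 for Hr and -1.69 for Mex3d.

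**Figure D2:**
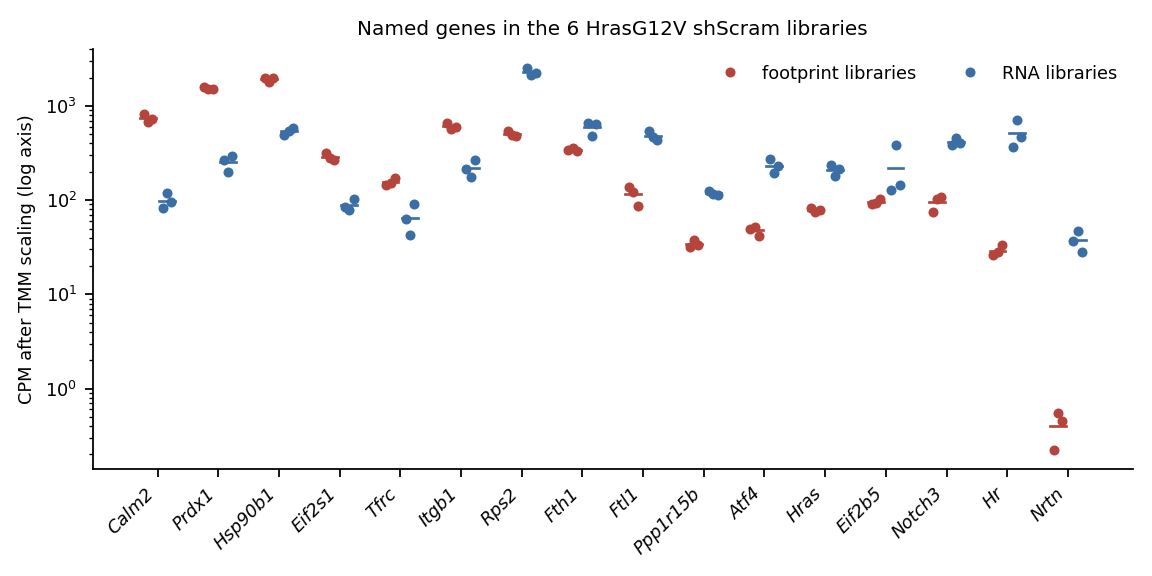
CPM after TMM scaling (log axis) of 16 named genes in the 3 footprint libraries (left of each pair) and the 3 RNA libraries (right) of HrasG12V shScram. Points are libraries and bars are means. Calm2 and Prdx1 sit higher in footprints, Hr and Nrtn far higher in RNA, and RNA library 2 is the high point of Eif2b5.

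mRNAs with known regulatory reading frames in the 5′ leader had the lowest median of the described lists. When eIF2 is limiting, such frames let ribosomes reach the main coding sequence, and otherwise they catch them. Of 12 tested members 0 were called higher and 8 lower, with a median log2 ratio of -1.61 (-0.03 over all tested genes) and -1.75 with the offsets. The median was -1.74 in WT shScram and -1.55 in HrasG12V shEif2b5, and none of the 12 differed in ratio between conditions by the adjusted test. Short upstream frames of 3 members, and of Hr from outside the list, are printed as examples. Only frames of at most 30 bases that end within the leader were considered, so longer or overlapping frames are not shown. Whether a printed frame is the one that holds back its mRNA was not tested. The frames are mm10 sequence from GENCODE M21 transcripts, with the start and stop codons in capitals.
Ppp1r15b upstream frame, chr1:133131468-133131494, plus strand: ATGgtggagcgatctcacacggccTAG
Ibtk upstream frame, chr9:85743916-85743939, minus strand: ATGaagaacttgtatttgataTGA
Atf4 first short frame, chr15:80255582-80255593, plus strand: ATGgcgtatTAG
Hr upstream frame, chr14:70553964-70553987, plus strand: ATGaagagtggcttagccaggTGA
In the leader of the transcript used, Ppp1r15b had 3 ATGs, Ibtk 4, Atf4 3 and Hr 12.

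Atf4 encodes the transcription factor that is made when eIF2 is phosphorylated. Its footprints were 49.3, 51.8 and 41.9 CPM and its RNA 270.2, 196 and 229.9 CPM, a log2 ratio of -2.29 ± 0.19 (adjusted p = 9.36e-11). Footprints were below RNA in all 3 libraries, about 4.89-fold. The ratio was -3.03 in WT shScram and -2.31 in HrasG12V shEif2b5. Ppp1r15b, the constitutive subunit that guides dephosphorylation of eIF2, had 31.9, 37.6 and 33.1 CPM in footprints and 126, 116 and 114 CPM in RNA, a log2 ratio of -1.80 ± 0.15 (adjusted p = 6.09e-11). Slc35a4, a sugar-nucleotide transporter, had 2.45, 2.45 and 3.81 CPM in footprints and 88.3, 60.1 and 75.3 CPM in RNA, a log2 ratio of -4.67 ± 0.22. Ibtk, an inhibitor of a B cell kinase, had 24.1, 31.1 and 34.5 CPM in footprints and 81.8, 59 and 80.5 CPM in RNA, a log2 ratio of -1.32 ± 0.16. Ppp1r15a (-2.95), Atf5 (-2.93), Ddit3 (-1.93) and Ifrd1 (-1.42) were the other members called lower. Eprs (0.13), Cdkn1b (0.31), Uchl1 (0.04) and Bace1 (-0.38) were not called. These 8 were named after their values were seen.

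Upstream ATGs went with low ratios across the transcriptome. Genes with no ATG in the annotated leader (n = 5565) had a median log2 ratio of 0.27, those with 1 (n = 2543) -0.09, those with 2 (n = 1182) -0.43 and those with 3 or more (n = 1945) -0.60. Of the genes with 3 or more, 16.5% were called higher and 53.1% lower, whereas of those with none, 41.3% were called higher and 21.8% lower. The order held with the offsets, with medians of 0.27, -0.02, -0.24 and -0.46. It was alike in WT shScram, with medians of 0.30, -0.07, -0.42 and -0.59, and in HrasG12V shEif2b5, with 0.33, -0.07, -0.35 and -0.54. In the quartile of genes lowest in coding GC content, medians were -0.18 with 3 or more ATGs and 0.81 with none, and in the highest quartile -1.35 and -0.48. Spearman's rho over 11235 genes was -0.29. Leaders of single transcripts were used, and the transcript made in these cells was not known.

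The bases around the main start codon made a smaller difference. An A or G 3 bases before the ATG and a G right after it are known to favour initiation. Genes with neither (n = 672) had a median of -0.34, genes with 1 of them (n = 5324) -0.04 and genes with both (n = 5197) 0.06. The matching medians with the offsets were -0.21, 0.03 and 0.12. Leader length was also related, with a median of -0.38 in the longest quartile (300 bases or more) and 0.11 in the shortest.

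**Figure D3:**
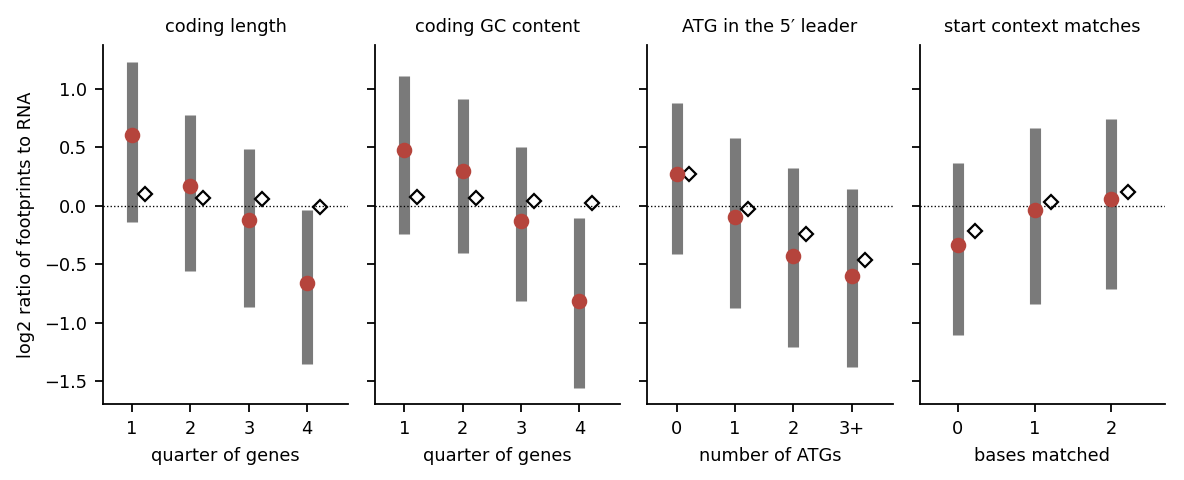
Median log2 ratio of footprints to RNA (red circles), interquartile range (grey bars) and median with coding GC and length offsets (open diamonds), by quartile of coding length, quartile of coding GC content, ATGs in the 5′ leader and matched bases of the start context. Medians were lower along length, GC content and upstream ATGs. The offsets level the first 2 panels by construction and leave the steps in the third.

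Coding length and coding GC content were the properties most closely related to the ratio. The shortest quartile of coding sequences (up to 876 bases) had a median log2 ratio of 0.61 and the longest (2250 bases or more) -0.66. The quartile lowest in GC content had a median of 0.48 and the highest (above 57.4% GC) -0.82. Spearman's rho over 11397 genes was -0.43 with length and -0.44 with GC content. The 625 genes in the lowest quartile of both had a median of 1.27, with 78.6% called higher, and the 610 genes in the highest quartile of both had -1.46, with 86.1% called lower. Across genes, the rank correlation of footprint level with coding length was -0.04 to 0.01 per library, and that of RNA level 0.22 to 0.25. The part of library preparation, mapping and ribosome density in these relations was not tested. A fit with smooth offsets for both properties removed them, whatever their source, so list medians are given with their offset medians. That fit called 6052 genes, and 4526 had the call of the main fit.

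The ferritin genes Fth1 and Ftl1 and the iron exporter Slc40a1 carry an iron-responsive element in the 5′ leader, on which iron regulatory proteins block initiation. The transferrin receptor gene Tfrc carries such elements in its 3′ UTR, where they steady the mRNA. The loops are printed because they let the leader and 3′ UTR elements be compared. The 6 bases of the loop are in capitals, and the sequences are mm10 from GENCODE M21 transcripts.
Fth1, 5′ leader, chr19:9982733-9982760, plus strand: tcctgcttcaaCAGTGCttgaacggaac
Ftl1, 5′ leader, chr7:45459779-45459806, minus strand: tcttgcttcaaCAGTGTttgaacggaac
Slc40a1, 5′ leader, chr1:45925465-45925492, minus strand: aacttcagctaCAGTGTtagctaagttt
Tfrc, 3′ UTR, chr16:32631220-32631247, plus strand: attatcggaagCAGTGCcttccataatt
The search asked for CAGTGN with 5 base pairs (G-T allowed) closing the loop and a C below the left arm, on the transcript strand only. It matched 16 of 11235 tested genes with a 5′ leader (0.142%) and 79 of 11285 with a 3′ UTR (0.7%).

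Ftl1 had 139, 121 and 87.3 CPM in footprints and 546, 471 and 431 CPM in RNA, a log2 ratio of -2.06 ± 0.17 (adjusted p = 1.02e-10). Fth1 had 344, 354 and 332 CPM in footprints and 665, 476 and 648 CPM in RNA, a log2 ratio of -0.80 ± 0.17 (adjusted p = 0.000145). Slc40a1 had 35.7, 45 and 28.2 CPM in footprints and 55.4, 47.3 and 56.9 CPM in RNA, a log2 ratio of -0.57 ± 0.18 (adjusted p = 0.00817). For these 3 genes no footprint library reached an RNA library, although Fth1 and Slc40a1 lost their call without RNA libraries 1 and 3, and Slc40a1 also without footprint library 3. Tfrc was the reverse, with 146, 154 and 170.2 CPM in footprints and 63.3, 42.3 and 90.5 CPM in RNA, a log2 ratio of 1.23 ± 0.18 (adjusted p = 2.19e-06). Of the 8 tested members of the list, 2 were called higher and 3 lower (median -0.23, and -0.19 with the offsets), shares near those of all tested genes, while Epas1 (-0.23), Slc11a2 (-0.23) and Alas2 (-0.20) were not called. Epas1 and Slc11a2 were named after their values were seen. Exons of other genes cover 16.0% of the Ftl1 coding bases on its own strand, and ferritin genes have many processed copies, so their ratios are uncertain.

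Genes of the translation apparatus split by part. Of 77 tested cytosolic ribosomal protein genes, 6 were called higher and 44 lower, and the median was -0.51. Their coding sequences are short (median 456 bases), which is where other genes had high ratios, and with the offsets the median was -1.30 and 73 of the 77 were called lower. Rps2, a protein of the small subunit, had 547, 489.6 and 477 CPM in footprints and 2550.1, 2106 and 2237 CPM in RNA, a log2 ratio of -2.19 ± 0.15 (adjusted p = 2.64e-12). Rplp0 of the ribosomal stalk had 1291, 1068 and 1288 CPM in footprints and 6200.0, 4201 and 5329 CPM in RNA, a log2 ratio of -2.11 ± 0.17. RNA exceeded footprints in every library of both genes. Rpl13 (-2.11) and Rpsa (-1.66) were alike. At the other end were Rpl39 (0.84), Rpl30 (0.80) and Rpl11 (0.77), named after their values were seen. The list medians were -0.62 in WT shScram and -0.61 in HrasG12V shEif2b5. Ribosomal protein genes have many processed pseudogenes, so single values are uncertain.

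Ribosomal protein mRNAs begin with a terminal pyrimidine tract, through which mTOR signalling controls their translation. A C followed by at least 4 C or T within 4 bases of a RefSeq start (GRCm38.p6, own strand) was found for 25 of 56 ribosomal protein genes with a start in the table (44.6%) and for 1559 of 8796 tested genes (17.7%). Tested genes with the tract had a median log2 ratio of -0.07 and those without it -0.01. Annotated starts can miss the start used in a tissue, so a tract that was not found says only that these letters are not in this window. The 21 other mRNAs known for such tracts had 9 called higher and 8 lower, with a median of 0.07 (-0.35 with the offsets). Pabpc1, the poly(A)-binding protein, had 561, 513 and 611 CPM in footprints and 2096, 1965 and 1645 CPM in RNA (-1.76). The elongation factor gene Eef2 (-1.34) and Eif3f (-1.40) were also lower, whereas the nucleolar chaperone gene Npm1 (1.64) and Btf3 (1.13) were higher. On the opposite strand, exons of another gene cover 20.6% of the Btf3 coding bases. Eef2 was named after its value was seen.

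Initiation factor genes had high ratios. Of the 8 subunits of eIF2 and eIF2B, 6 were called higher and 1 lower, with a median of 0.93 (0.36 with the offsets). Eif2s1, the eIF2 subunit that stress kinases phosphorylate, had 317, 282 and 264 CPM in footprints and 83.7, 79.6 and 103 CPM in RNA, a log2 ratio of 1.69 ± 0.14 (adjusted p = 1.08e-10). Eif2b3 (1.43), Eif2s2 (1.07) and Eif2s3x (0.92) were higher too. Eif2b5 was the exception and the only subunit called lower. Its footprints were 91.8, 93 and 102 CPM and its RNA 127, 389 and 143 CPM, a log2 ratio of -1.17 ± 0.29 (adjusted p = 0.00254). RNA library 2 stood far above the other RNA libraries, and without it the log2 ratio was -0.48 and still called. In a fit on the 6 HrasG12V shScram libraries alone Eif2b5 lost its call (adjusted p = 0.0642 in edgeR). In WT shScram the Eif2b5 ratio was -0.68, and in HrasG12V shEif2b5, where an shRNA targets the mRNA, -0.66. Of 23 other initiation factor genes, 14 were called higher and 4 lower, with a median of 0.47 (0.43 with the offsets). Eif1ax (1.84), the cap-binding Eif4e (1.60) and Eif5a (1.28) were among the higher. Eif4g2, a scaffold related to eIF4G whose own synthesis is known to start at a GTG codon, had 516, 477 and 457 CPM in footprints and 1858, 1468 and 1779 CPM in RNA, a log2 ratio of -1.82 ± 0.14. Eif4g3 (-1.24), Eif4g1 (-0.61) and Eif4ebp2 (-0.80), named after their values were seen, were the other 3 called lower.

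Polyamine genes are tuned by frameshifting and by upstream frames. Of 10 tested, 0 were called higher and 5 lower, with a median of -0.51 (-0.91 with the offsets). Oaz1, the antizyme that marks ornithine decarboxylase for decay and whose full protein needs a ribosomal frameshift, had 301, 285 and 284 CPM in footprints and 649, 719 and 568 CPM in RNA, a log2 ratio of -1.15 ± 0.13 (adjusted p = 2.65e-08). Spermine oxidase Smox (-1.88), the polyamine transporter gene Atp13a3 (-0.94) and the second antizyme Oaz2 (-0.72) were also lower. Selenoproteins, which read a stop codon as selenocysteine, had 6 of 17 called higher and 5 lower (median 0.12, and 0.26 with the offsets). These shares (35.3% and 29.4%) were near those of all tested genes (31.2% and 33.4%). Selk (1.67) and Sephs2 (-1.63) were the ends of the list, and exons of another gene cover 48.4% of the Sephs2 coding bases on the opposite strand. Cytosolic tRNA synthetases had 11 of 20 called higher and 2 lower (median 0.41, and 0.58 with the offsets), and mitochondrial ones 2 of 17 higher and 6 lower (median -0.17, and 0.03 with the offsets). Ribosome biogenesis factors had 12 of 26 higher and 4 lower (median 0.27, and 0.48 with the offsets).

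**Figure D4:**
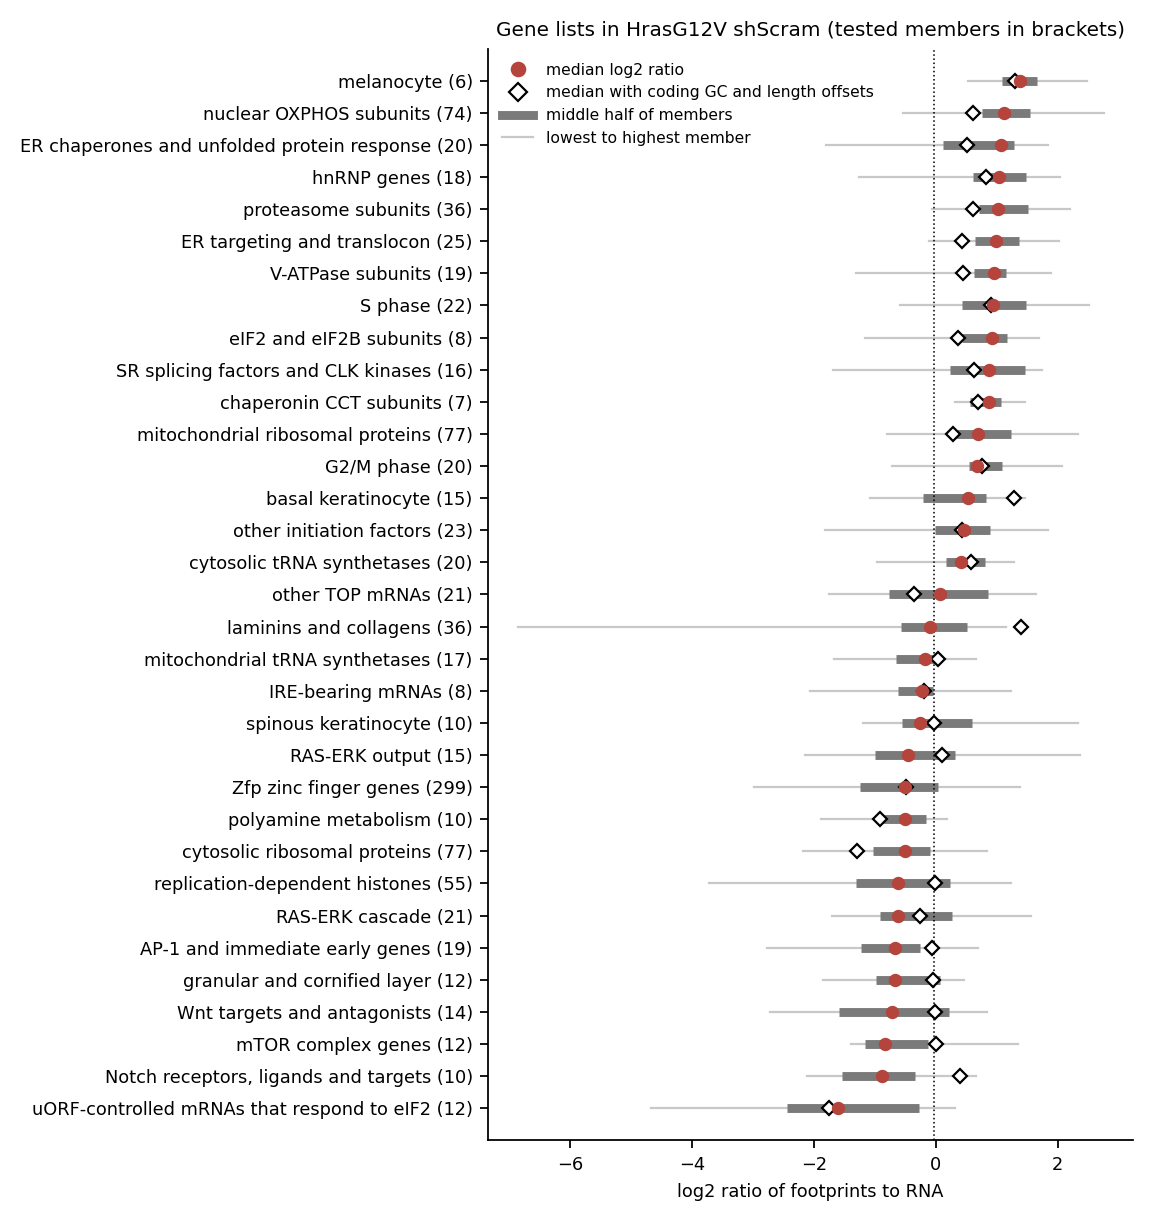
Log2 ratio of footprints to RNA for 33 gene lists in HrasG12V shScram, ordered by median. Red circles are medians, thick bars the interquartile range and thin lines the range of tested members, open diamonds the medians with coding GC and length offsets, and the dotted line the median of all tested genes (-0.03). Melanocyte and respiratory chain genes lie highest. The ribosomal protein, polyamine and uORF lists lie further left with the offsets, and the Notch, mTOR and Wnt lists lie near 0 or above it with them.

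Respiratory chain and proteasome genes were nearly all on the high side. Of 74 nuclear genes for subunits of oxidative phosphorylation, 65 were called higher and 1 lower, with a median of 1.12 (0.62 with the offsets, 56 of them called higher). Ndufc2 of complex I had 339, 291 and 255 CPM in footprints and 45.1, 46.7 and 57.8 CPM in RNA, a log2 ratio of 2.56 ± 0.18 (adjusted p = 3.47e-12). Cox6c of complex IV (2.28) and the ATP synthase genes Atp5j2 (2.11) and Atp5e (2.05) were also high, and Cyc1 (-0.55), named after its value was seen, was the member called lower. Of 36 proteasome genes, 32 were called higher and 0 lower, with a median of 1.02 (0.61 with the offsets). Psmd10 (2.20), the deubiquitinase Psmd14 (1.94) and the ATPase Psmc6 (1.68) were among them. Mitochondrial ribosomal proteins had 51 of 77 called higher and 2 lower, with a median of 0.70 (0.28 with the offsets). Mrpl50 (2.17) and Mrps33 (2.17) were among the most certain.

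Protein folding and secretion genes were high as well. All 7 tested subunits of the chaperonin CCT were called higher, with a median of 0.87 (0.70 with the offsets). Of 20 ER chaperone and unfolded protein response genes, 13 were called higher and 2 lower, with a median of 1.07 (0.51 with the offsets). Hsp90b1, the ER form of Hsp90, had 1968, 1802 and 2001 CPM in footprints and 496, 541 and 583 CPM in RNA, a log2 ratio of 1.83 ± 0.14. Pdia3 (1.49), Calr (1.40) and Hspa5 (1.25), which fold glycoproteins and hold nascent chains, were also higher. The members called lower, named after their values were seen, were Edem1 of ER-associated degradation (-1.80) and Xbp1, the spliced transcription factor of the response (-0.77). Of 25 ER targeting and translocon genes, 23 were called higher and 0 lower (median 0.99, and 0.43 with the offsets), with Ssr3 (2.03) and Ssr1 (1.53) among them. The proton pump of lysosomes had 14 of 19 subunit genes higher and 1 lower, Atp6v0a2 (-1.31), with a median of 0.96 (0.44 with the offsets). Cytosolic heat shock proteins had 7 of 12 higher and 2 lower (median 0.70, and 0.82 with the offsets), with Hsp90aa1 at 1.77. The lower ones were the heat-inducible Hspa1a (-2.23) and Hspa1b (-2.39), which are near-identical copies and were named after their values were seen.

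Splicing factor genes were mostly called higher, and few zinc finger or immediate early genes were. Of 18 hnRNP genes, 15 were called higher and 1 lower, Hnrnpul1 (-1.26), with a median of 1.04 (0.83 with the offsets). Hnrnpa3 had 2385, 2003 and 2168 CPM in footprints and 494, 572 and 539.5 CPM in RNA, a log2 ratio of 2.03 ± 0.16. SR proteins and CLK kinases had 10 of 16 called higher and 2 lower (median 0.87, and 0.62 with the offsets), with Srsf10 (1.74), Srsf7 (1.73) and Srsf3 (1.73) on top. Of 299 Zfp zinc finger genes, 16 were called higher and 133 lower, with a median of -0.51 (-0.50 with the offsets). Zfp236 (-2.43), Zfp646 (-2.37) and Zfp516 (-2.25) were examples. AP-1 and immediate early genes had 0 of 19 higher and 10 lower (median -0.67, and -0.07 with the offsets). Klf4, a regulator of the epidermal barrier, had 71.8, 75 and 60.2 CPM in footprints and 402, 456 and 266 CPM in RNA (-2.44). Jund had the log2 ratio -2.78, but exons of another gene cover 85.7% of its coding bases on the opposite strand, so that without strand its counts cannot be assigned to it alone.

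Cell cycle genes were on the high side, and the histones that are made with them were not. Of 22 S phase genes, 17 were called higher and 1 lower, with a median of 0.93 (0.91 with the offsets). Of 20 G2/M genes, 16 were higher and 1 lower (median 0.67, and 0.76 with the offsets). Cdk1, the kinase that drives mitosis, had 268, 259.8 and 254 CPM in footprints and 66.3, 41.2 and 73.8 CPM in RNA, a log2 ratio of 2.07 ± 0.18. Gins1 of the replicative helicase (2.52), the ribonucleotide reductase gene Rrm2 (1.69) and cyclin gene Ccnb1 (1.58) were also higher. Of 55 replication-dependent histone genes, 12 were called higher and 27 lower, with a median of -0.62 (-0.01 with the offsets). They ran from Hist1h2bn (-3.73) to 1.23. Slbp, which binds the stem-loop at the end of their mRNAs, was higher at 1.62. Histone variants with poly(A) tails had 5 of 9 higher and 2 lower (median 0.51, and 0.13 with the offsets), with H2afz at 1.44 and H2afx at -0.90 (0.13 with the offsets). On the opposite strand, exons of another gene cover 32.9% of the H2afx coding bases. Histone genes of a class have near-identical coding sequences, and how RNA without a poly(A) tail was captured is not given in the sources used here, so single histone values are uncertain.

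Within the RAS-ERK cascade, 4 of 21 genes were called higher and 12 lower, with a median of -0.63 (-0.25 with the offsets). Hras, the gene that carries the mutation (chromosome 7), had 81.8, 74.7 and 79.1 CPM in footprints and 235, 181 and 214 CPM in RNA, a log2 ratio of -1.43 ± 0.16 (adjusted p = 1.83e-08). Footprints were about 2.69-fold lower in HrasG12V shScram. The ratio was -1.60 in WT shScram and -1.66 in HrasG12V shEif2b5, and the difference between HrasG12V shScram and WT shScram was 0.17 (adjusted p = 0.78). Counts do not separate the mutant allele from the normal one. The exchange factor gene Sos2 (-1.70) and the receptor gene Erbb2 (-1.60) were lower. Among 15 ERK output genes, 4 were higher and 6 lower, shares near those of all tested genes, with a median of -0.46 (0.10 with the offsets). The feedback inhibitors Spry1 (-2.15), Spred2 (-1.43) and Spred1 (-1.09) were lower, and the membrane protein gene Emp1 was higher, with 653, 661 and 582 CPM in footprints and 123.3, 109.6 and 134 CPM in RNA (2.37).

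Of 10 Notch genes, 1 was called higher and 6 lower, with a median of -0.88, and the median was 0.39 with the offsets. Notch3, a receptor, had 75.8, 104 and 108 CPM in footprints and 389, 458 and 407 CPM in RNA, a log2 ratio of -2.12 ± 0.18, and 0.01 with the offsets. Nrarp (-1.62, with exons of another gene over 68.4% of its coding bases on the opposite strand), Maml1 (-1.66) and the ligand gene Jag2 (-1.29, but 0.56 with the offsets) were lower too. Wnt targets and antagonists had 3 of 14 higher and 7 lower (median -0.72, and -0.02 with the offsets). The ubiquitin ligase genes Rnf43 (-2.73) and Znrf3 (-2.18), which clear Wnt receptors, and the feedback gene Axin2 (-1.74) stayed negative with the offsets at -1.66, -0.92 and -0.90. The genes of mTOR complexes and their regulators had 2 of 12 higher and 8 lower (median -0.84, and 0.00 with the offsets). Mtor (-1.34, but 0.00057 with the offsets), Larp1 (-1.35) and Tsc1 (-1.40) were lower and Rheb, the GTPase that activates mTORC1, was higher (1.35). In the hair follicle list 5 of 15 were higher and 6 lower, shares near those of all tested genes, with a median of -0.02. With the offsets the median was 0.57, and 8 were called higher and 4 lower. The hedgehog genes Gli1 (-2.16) and Ptch1 (-2.14) and the hair regulator Lhx2 (-1.80) were among the lower in the main fit.

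Ratios of epidermal genes varied between lists and between members of a list, and most spinous and granular genes were not called. Of 15 basal keratinocyte genes, 9 were called higher and 2 lower, with a median of 0.53 (1.28 with the offsets). Itgb1, the integrin subunit that anchors basal cells, had 656, 575 and 596 CPM in footprints and 217, 177 and 266 CPM in RNA, a log2 ratio of 1.46 ± 0.18 (adjusted p = 8.71e-08). Trp63, the master factor of stratified epithelia (1.08), and Cdh3 (0.98) were higher, and the linker Dst (-1.09, but 0.24 with the offsets) was lower. Of 10 spinous genes, 2 were called higher and 1 lower, with a median of -0.26 (-0.03 with the offsets, and 0.13 without the 20 most abundant genes). Krt10, the main suprabasal keratin, had 10546, 8949.9 and 8707 CPM in footprints and 25353, 26980.5 and 11941 CPM in RNA, a log2 ratio of -1.19 ± 0.46 (adjusted p = 0.0373), with RNA library 3 far below the others. The Krt10 call was lost in every fit with 1 library left out except the one without RNA library 3. Krtdap, a small secreted protein of differentiating cells, had 2386, 2640.2 and 2169.9 CPM in footprints and 564, 386 and 468 CPM in RNA (2.34). Of 12 granular and cornified layer genes, 0 were higher and 2 lower, Lor and Sprr1a, with a median of -0.68 (-0.05 with the offsets). Lor, the main protein of the cornified envelope, had 514, 542 and 695 CPM in footprints and 1149.6, 4533 and 661 CPM in RNA, so the groups overlapped and RNA library 2 stood far above the others. The log2 ratio of Lor was -1.85, and without RNA library 2 it was -0.62. The Lor call was lost in that fit, without each of the 3 footprint libraries, by limma voom, with no filter, with the replicate block and on the 6 libraries alone, and with the offsets the ratio was 0.67. Granular markers summed to 1505 to 1715 CPM in footprints and to 2281, 5537 and 1444 CPM in RNA libraries 1, 2 and 3, and their part in these ratios was not tested.

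Of 12 desmosome genes, 3 were called higher and 4 lower, shares near those of all tested genes, with a median of -0.03 (0.37 with the offsets). The transmembrane cadherin genes Dsc3 (1.28), Dsg3 (1.26) and Dsc2 (1.23) were the higher ones. The plaque proteins Pkp3 (-1.15, but 0.072 with the offsets), Evpl (-2.01), Dsp (-1.52) and Ppl (-1.16) were the lower ones, and the last 3 were named after their values were seen. With the offsets none of the 12 was called lower. Of 36 laminin and collagen genes, 7 were higher (19.4%) and 12 lower (33.3%, near the 33.4% of all tested genes). Their median of -0.09 became 1.40 with the offsets, the largest such shift among the lists. These genes are long (median 5073 bases) and GC-rich. Lamb3 of laminin-332 had 482, 510.0 and 613 CPM in footprints and 226, 255 and 359 CPM in RNA (0.93). Of 18 integrins, 7 were higher and 1 lower, Itgb5 (-1.74), with a median of 0.39 (0.70 with the offsets).

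All 6 melanocyte genes were called higher, with a median of 1.38 (1.31 with the offsets). Tyr, the first enzyme of melanin synthesis, had 112, 96.2 and 95 CPM in footprints and 30.8, 32.3 and 33.4 CPM in RNA, a log2 ratio of 1.66 ± 0.16. Mlana (2.49), Tyrp1 (1.66) and the fibril protein gene Pmel (1.08) were higher too. Their medians were 1.92 in WT shScram and 1.69 in HrasG12V shEif2b5. Of 6 fibroblast genes, the matrix proteoglycan gene Dcn was called higher (2.01), with 869.5, 976 and 1040.1 CPM in footprints and 196, 219.8 and 302 CPM in RNA, and 5 were not called (median 0.26, and 1.14 with the offsets). Whether these cell types were recovered alike in the 2 library kinds was not tested.

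Metabolic and stress lists were mixed. Glycolysis had 10 of 16 genes higher and 1 lower (median 0.63, and 0.68 with the offsets), with Pgk1 at 1.27. Cholesterol synthesis had 13 of 23 higher and 6 lower (median 0.57, and 0.36 with the offsets). Its enzymes Idi1 (1.86) and Cyp51 (1.34) were higher and Srebf2, the transcription factor that drives them, was lower, with 150.0, 152 and 161 CPM in footprints and 425, 455 and 376 CPM in RNA (-1.44). ATF4 targets had 6 of 16 higher and 2 lower (median 0.17, and 0.22 with the offsets), with the serine synthesis genes Psph (1.27) and Psat1 (1.04) higher and Cebpb lower (-1.99, -0.03 with the offsets). On the opposite strand, exons of Tmem189 cover 35.1% of the Cebpb coding bases. Amino acid transporters had 7 of 12 higher and 1 lower (median 0.59, and 0.85 with the offsets). Tubulins and actins had 8 of 12 higher and 0 lower (median 0.66, and 0.74 with the offsets). p53 targets had 0 of 13 higher and 3 lower (median -0.29, -0.20 with the offsets, and 0.020 without RNA library 2), Mdm2 (-0.78, not called without RNA libraries 1 and 3), Zmat3 (-1.46) and Sesn2 (-0.97). Of 12 genes for SCF ubiquitin ligases, 8 were higher and 2 lower, with a median of 0.69 (0.32 with the offsets). Fbxo32, an F-box gene, had 21, 16.1 and 19.3 CPM in footprints and 5.92, 7.23 and 8.56 CPM in RNA, a log2 ratio of 1.38 ± 0.28 (adjusted p = 0.000104), and Fbxw7, the ligase for cyclin E and Notch, was lower (-1.31). Of 10 stress keratinocyte genes, 4 were higher and 0 lower (median 0.14, and 0.22 with the offsets), among them the cytokine genes Ccl20 (2.14) and Tslp (1.15, but -0.15 with the offsets).

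The ratios were set beside those of the other conditions, which had their own libraries. In WT shScram, 3910 of the 11449 genes (34.2%) were called higher and 3949 (34.5%) lower, and in HrasG12V shEif2b5 3996 (34.9%) and 3943 (34.4%). Of the genes called higher in HrasG12V shScram, 3154 (88.2% of them, and 80.7% of those in WT shScram) were also called higher in WT shScram, and 5 were called lower. Of the genes called lower, 3340 (87.4% of them, and 84.6% of those in WT shScram) were also called lower in WT shScram, and 6 were called higher.

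The difference in ratio between HrasG12V shScram and WT shScram was called for few genes, 15 higher (0.131%) and 113 lower (0.987%), with 1753 genes at an unadjusted p under 0.05. Fxyd3, a regulator of the sodium pump, differed most clearly. Its log2 ratio was 0.72 in HrasG12V shScram and 2.53 in WT shScram, a difference of -1.82 ± 0.24 (SE, adjusted p = 0.00061). Its footprints in HrasG12V shScram were 164, 128 and 130.1 CPM and its RNA 92.9, 83.5 and 80 CPM. Exons of Lgi4 cover 20.8% of the Fxyd3 coding bases on the opposite strand. Tmem33, a membrane protein of the ER, had a log2 ratio of 1.22 in HrasG12V shScram and 3.07 in WT shScram (adjusted p = 0.00847). Snrpb2, a spliceosomal protein, had 1.40 in HrasG12V shScram and 2.63 in WT shScram (adjusted p = 0.01), and Cox7a2 of complex IV 1.51 in HrasG12V shScram and 2.59 in WT shScram (adjusted p = 0.0119). Hist1h3a was -1.28 in HrasG12V shScram and 0.37 in WT shScram (adjusted p = 0.00847), with the limits given above for histones. Without RNA libraries 1 and 3 the adjusted p of the difference was 0.028 for Fxyd3, and Tmem33 (0.264), Snrpb2 (0.179), Cox7a2 (0.179) and Hist1h3a (0.17) lost their call in edgeR. Snrpb2 (adjusted p = 0.0555) and Hist1h3a (adjusted p = 0.0584) also lost it with the offsets. In the respiratory chain list, 7 of 74 genes had a lower ratio than in WT shScram and 0 a higher one. None of these 7 was called in every fit with 1 library left out. Against HrasG12V shEif2b5, with the same HrasG12V shScram libraries, 7 genes of the list were also lower and 0 higher.

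Against HrasG12V shEif2b5, 33 genes had a higher ratio (0.288%) and 209 a lower one (1.83%), with 2121 at an unadjusted p under 0.05. Lamp2, a lysosomal membrane protein, had a log2 ratio of 1.66 in HrasG12V shScram and 3.30 in HrasG12V shEif2b5, a difference of -1.64 ± 0.22 (SE, adjusted p = 0.0007). Pex13, a peroxisomal import protein, had 0.53 in HrasG12V shScram and 2.12 in HrasG12V shEif2b5 (adjusted p = 0.00903), and Csnk2b, a subunit of casein kinase 2, 1.61 in HrasG12V shScram and 2.70 in HrasG12V shEif2b5 (adjusted p = 0.00953). Mtx2 of the mitochondrial outer membrane had 0.85 in HrasG12V shScram and 2.06 in HrasG12V shEif2b5 (adjusted p = 0.00953). Stfa3, a stefin whose family has close copies, had 1.63 in HrasG12V shScram and 3.03 in HrasG12V shEif2b5 (adjusted p = 0.00903). All 5 genes lost their call without RNA libraries 1 and 3, with adjusted p between 0.142 for Lamp2 and 0.367 for Mtx2. Both comparisons use the same HrasG12V shScram libraries. None of the 12 uORF-controlled genes and none of the 8 eIF2 and eIF2B subunits differed in ratio in either comparison by the adjusted test, which does not show that they were alike.

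Both counts depended on single libraries. Without RNA library 2, 641 genes differed from WT shScram (252 higher and 389 lower) and 1301 from HrasG12V shEif2b5 (596 higher and 705 lower). Without RNA library 1 the counts were 8 and 30, and without RNA library 3 they were 21 and 26. Leaving out footprint library 1, 2 or 3 gave 16, 14 and 12 against WT shScram and 52, 23 and 31 against HrasG12V shEif2b5. Without RNA libraries 1 and 3 they were 8 and 2, and of the 128 and 242 genes, 2 and 1 were still called, while all kept their sign. In every fit with 1 library left out, 6 of the 128 and 14 of the 242 were called. RNA libraries 1 and 3 had the lowest rank correlations with coding GC content of all 9 RNA libraries, as given above, and with the GC and length offsets 90 (21 higher and 69 lower) and 128 (30 higher and 98 lower) genes differed, 61 and 88 of them among those of the main fit. The part of coding GC content in the remaining differences was not tested.

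**Figure D5:**
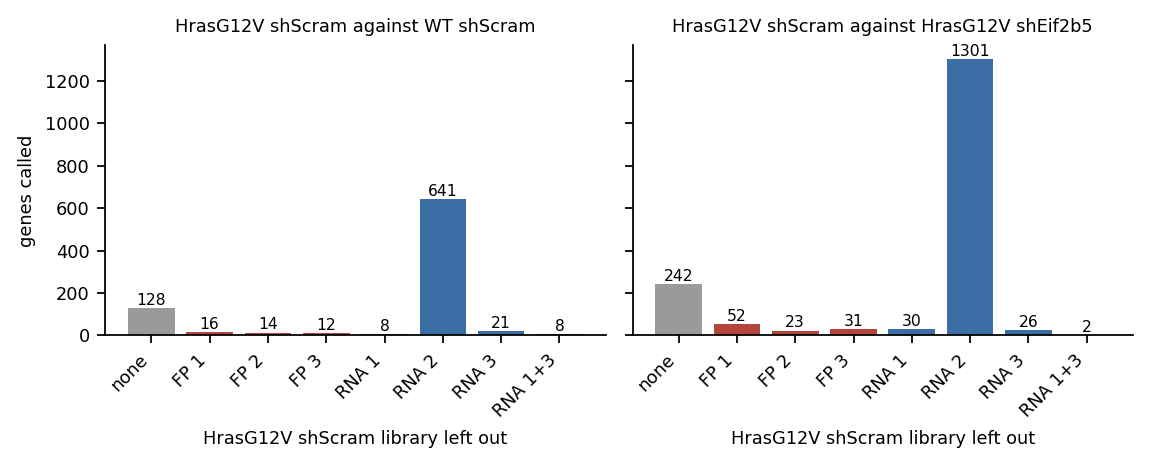
Genes whose footprint-to-RNA ratio was called different between HrasG12V shScram and WT shScram (left) or HrasG12V shEif2b5 (right), by the HrasG12V shScram library left out (bars start at 0; grey none, red footprint, blue RNA). Leaving out RNA library 2 gave 641 and 1301 genes, against 128 and 242 with all libraries.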

How the data were processed

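Ribosome footprints and RNA were measured in 3 libraries each of HrasG12V shScram, HrasG12V shEif2b5 and WT shScram epidermis. The deposited table holds raw read counts per gene over coding sequence, made by the authors with Bowtie, TopHat2 and HTSeq on mm10, per the submitters' processing notes. Tool versions, strand setting, treatment of multiply mapped reads and RNA selection are not given in the sources used here.

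Counts were tested with edgeR 4.0.16 (R 4.3.3, quasi-likelihood test, robust) in 1 model of 6 groups over 18 libraries, with TMM factors and filterByExpr (minimum count 10, total 15) on the 6 HrasG12V shScram libraries. The differences between conditions are interaction terms of the same model. p-values were adjusted over all tested genes by Benjamini-Hochberg. The test was checked on simulated counts in which all but 200 genes had the same mean level in every group. Such counts lack the widespread differences between footprints and RNA found here, so that check does not cover them. Coding GC and length offsets were smooth curves per library (mgcv 1.9.3). Alternatives used DESeq2 1.42.0, limma 3.58.1 and other scalings, filters and libraries left out. Gene symbols were matched to GENCODE M21 for 98.7% of 20655 rows (19783 by symbol, 597 by synonym), with 1 transcript per gene. RefSeq starts were those of GRCm38.p6. Counting intervals cover counting error only.

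Named genes were Hras, Eif2b5 and Fbxo32, the 8 highest and 8 lowest ratios at 10 CPM and at 100 CPM among genes called at least 2-fold without overlap, up to 4 called members per list by smallest p (up to 2 without a call), and up to 6 genes per difference between conditions. Predicted gene models and replication-dependent histones were left out of the highest and lowest. Genes outside this rule are marked in the text, and a few genes within it are not reported here. The comparison, gene lists and rules were chosen with earlier results of these data known.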

Additional observations from a re-analysis of the deposited data

Results flagged for a closer look

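The following genes had a footprint-to-RNA ratio that differed between conditions by the interaction term of edgeR's quasi-likelihood model, and were the 6 with the smallest p in each comparison. Relative to WT shScram, the log2 ratio in HrasG12V shScram differed by -1.82 for Fxyd3 (adjusted p = 0.00061), -1.96 for 1810022K09Rik (adjusted p = 0.00847), -1.85 for Tmem33 (adjusted p = 0.00847), -1.65 for Hist1h3a (adjusted p = 0.00847), -1.23 for Snrpb2 (adjusted p = 0.01) and -1.08 for Cox7a2 (adjusted p = 0.0119). Relative to HrasG12V shEif2b5, it differed by -1.64 for Lamp2 (adjusted p = 0.0007), -1.59 for Pex13 (adjusted p = 0.00903), -1.41 for Stfa3 (adjusted p = 0.00903), -1.99 for 1810022K09Rik, -1.21 for Mtx2 and -1.08 for Csnk2b (adjusted p = 0.00953 each). Exons of another gene cover 20.8% of the Fxyd3 coding bases on the opposite strand. The same 6 HrasG12V shScram libraries enter both comparisons.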

How the results depend on the processing

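The count of 7398 called genes was within 1.5 times of itself under every alternative except the test against a fold of 1.5, which called 4524. The difference from WT shScram (128 genes) was 363 with library totals, which moved the median difference to -0.18 from -0.02, 245 by DESeq2's Wald test (60 higher and 185 lower) and 8 without RNA libraries 1 and 3 (chosen after seeing the data). It was 8 to 641 with 1 library left out. The difference from HrasG12V shEif2b5 (242 genes) was 414 by DESeq2's Wald test (101 higher and 313 lower), 128 with the GC and length offsets, 2 without RNA libraries 1 and 3, and 23 to 1301 with 1 library left out. Without any cause having been tested, the list medians with the offsets turned to 0.030 for mitochondrial tRNA synthetases, 0.10 for RAS-ERK output and 0.39 for Notch genes. The spinous median was 0.13 without the 20 most abundant genes, and the p53 target median ran from -0.35 to 0.020 with 1 library left out. With the offsets 13 of 225 called named genes changed sign, namely Fxyd3 (-0.42), Nedd8 (-0.24), Tslp (-0.15), Pex13 (-0.12), Mtx2 (-0.11), Mtor (0.00057), Notch3 (0.0054), Pkp3 (0.072), H2afx (0.13), Dst (0.24), Jag2 (0.56), Lor (0.67) and Col18a1 (0.91), 20 lost their call and 192 kept it. Without RNA libraries 1 and 3, 214 kept it.

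Same-numbered footprint and RNA libraries correlated at 0.17, 0.09 and 0.18 in their deviations and other pairs at -0.16 to -0.01. Every library thus correlated best with its own number. The main fit did not pair the libraries by number, and whether the numbers mark paired samples was not tested. With the number as a replicate block, 7608 genes were called, and 168 and 356 differed from WT shScram and HrasG12V shEif2b5. The shallowest library held 1771365 counts, which limits genes of low level.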
